A study of Mus musculus with 15 samples.

Results

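M2-polarized mouse macrophages given nutlin-3a, an inhibitor of MDM2, were compared with M2 macrophages given no agent, 3 arrays in each group and 6 of the 15 arrays in the series. Both groups were macrophages grown from bone marrow for 7 days in M-CSF, which makes marrow cells divide and become macrophages, and both received IL-4 and IL-13. As far as the labels say, the groups differed by the agent alone. The mouse strain, genotype, age and sex were not given in the labels used here. Neither were the dose and time of nutlin-3a, its vehicle, or whether the M2 cells received that vehicle. The other arrays, 3 a group, held M2 cells given the MYC inhibitor 10058F4, M1 cells given LPS with interferon-gamma, and untreated M0 cells. The labels call the samples biological replicates and name no separate mice or cultures, so the p-values reflect the spread among these samples alone, which may be technical. For each of 18193 genes the brightest probe set by its mean over all 15 arrays was used, and 13703 genes passed a filter on low values and were tested.

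MDM2 is the ubiquitin ligase that binds the transcription factor p53, covers its activation domain and sends it to the proteasome. Nutlin-3a occupies the pocket of MDM2 that holds p53, so p53 is freed and accumulates without DNA damage. Freed p53 binds DNA as a tetramer and switches on genes for its own inhibitors, for cell cycle arrest, for cell death, and for DNA repair and metabolism. Among them are Mdm2 itself and Cdkn1a, which encodes the cyclin-dependent kinase inhibitor p21. Through p21, the retinoblastoma family and the DREAM complex, p53 is also known to lower genes of mitosis and DNA replication. In macrophages, M-CSF keeps part of the cells dividing, while IL-4 and IL-13 induce the M2 genes through STAT6. Trp53, which encodes p53, was not analysed here.

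Expression is given on the log2 scale after RMA, so a difference of 1 is 2-fold, and each difference is nutlin-3a minus M2 unless another pair is named. A gene was called when its adjusted p, from limma's linear model over all 15 arrays with Benjamini-Hochberg adjustment, was under 0.05. Array medians lay between 4.94 and 4.95 in the nutlin-3a arrays and between 4.97 and 4.99 in the M2 arrays. All 19 macrophage markers with a probe set lay above the filter's level, and their summed linear level was 93648 to 96454 with nutlin-3a, against 94973 to 97192 in M2 cells. As a sign of RNA integrity, the 3' control probe set of beta-actin exceeded the 5' one by 0.453 ± 0.0346 with nutlin-3a and 0.382 ± 0.0302 in M2 cells (SD, n = 3 each; exact two-sided permutation p = 0.1, the smallest that 3 against 3 can give). For Gapdh the same 3' minus 5' difference was -0.281 ± 0.0136 with nutlin-3a and -0.283 ± 0.0321 in M2 cells (SD, n = 3 each; exact permutation p = 1).

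Nutlin-3a raised 1310 genes and lowered 802. The genes called higher were 9.56% of those tested and the genes called lower 5.85%, while the median difference of all genes was 0.01. Most changes were small. At least 2-fold rises numbered 75 (0.547%) and at least 2-fold falls 71 (0.518%), and 11 genes rose and 3 fell over 4-fold. The median size of a called difference was 0.40. In 38.9% of the genes tested, all 3 arrays of one group lay above all 3 of the other. Of the 2112 called genes 2096 were separated in this way, so a lack of overlap adds little to a call, here and below. Rises made up 62.0% of the calls. That share was 51.6% (1106 higher, 1038 lower) when quantile normalization was repeated and 73.2% (1586 higher, 581 lower) when arrays were centred on their medians. Both counts also fell whichever array was left out, while no called gene changed direction in those fits. Without nutlin-3a replicate 2, 756 genes were called higher and 495 lower, and without M2 replicate 1, 774 and 469. Genes called lower numbered 462 without nutlin-3a replicate 1 and 504 without M2 replicate 3. Sizes depended on the choice of probe set: with the mean of all probe sets of a gene, 40 of 190 called genes chosen for description moved by over 1.5 times and 19 lost the call, and such values are given beside the genes they touch.

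**Figure D1:**
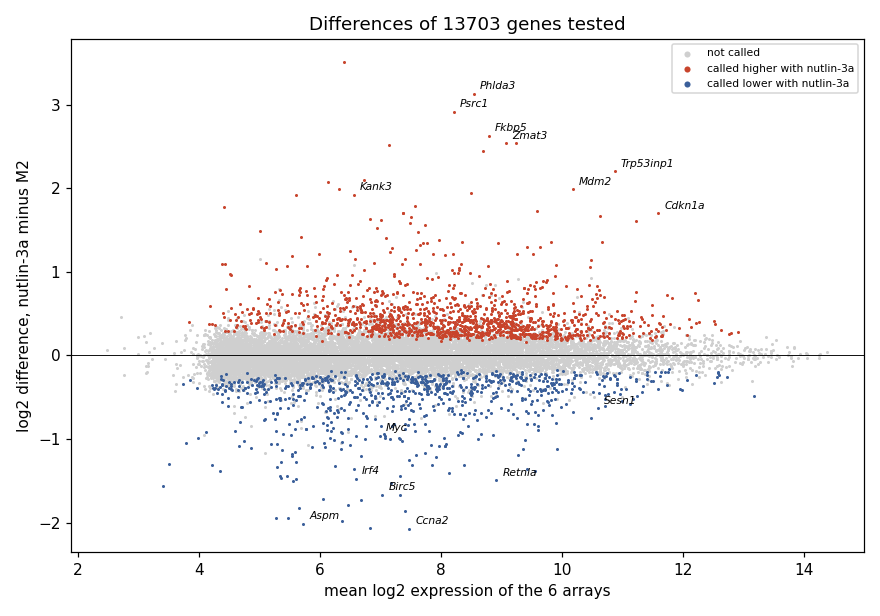
Difference between nutlin-3a and M2 arrays (y axis, log2) against the mean log2 expression of the 6 arrays (x axis), 1 point per gene, for 13703 genes. Red points are the 1310 genes called higher with nutlin-3a, blue points the 802 called lower and grey points the rest; Phlda3 (3.13) and Psrc1 (2.91) lie near the top and Ccna2 (-2.07) at the bottom.

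Established p53 targets were prominent among the rises. Of 79 genes listed as p53 targets 74 had a probe set of their own and 70 were tested. Of these 42 rose and 3 fell, with a median difference of 0.50, and 21 rose at least 2-fold. The median level of the tested targets was 8.20, 8.19 and 8.15 in the nutlin-3a arrays, against 7.25, 7.28 and 7.33 in the M2 arrays. Of the 74, Eda2r, Perp, Tnfrsf10b and Zfp365 stayed under the filter, and the listed genes outside the 74 were not analysed here. The filter asked for 3 arrays above the 40th percentile, so a target expressed only with nutlin-3a could pass through those arrays alone. The 25 targets tested and not called had differences between -0.56 and 0.60. Of the 42 rises 34 kept their call with each array left out in turn, and 36 kept it under the other settings tried.

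The feedback arm, whose products hold p53 in check or tune it, had 8 rises among 11 tested members and no fall, with a median difference of 1.05. Mdm2 stood at 11.14, 11.15 and 11.24 in the nutlin-3a arrays, against 9.15, 9.10 and 9.31 in the M2 arrays. All nutlin-3a arrays lay above all M2 arrays, a rise of 1.99 (SE 0.09, adjusted p = 7.7e-09), or 3.97-fold. A second Mdm2 probe set gave a difference of 2.20. The third, with levels of 4.38 to 4.56 with nutlin-3a and 4.02 to 4.33 in M2 cells, near the filter's level, gave 0.31. That dim probe set is the one left if only probe sets specific by suffix are used, and Mdm2 was then not called (adjusted p = 0.0677, against 8.6e-11 to 6.7e-06 under the other settings). Mdm4, the relative of MDM2 that masks p53 without degrading it, rose by 1.05 (SE 0.10, adjusted p = 1.0e-05), and by 0.42 with the mean of its probe sets. Ppm1d, the phosphatase WIP1 that removes activating phosphates from p53, rose by 0.56 (SE 0.08, adjusted p = 3.6e-04), and the p53 ubiquitin ligase Rchy1 (PIRH2) rose by 0.70 (SE 0.06, adjusted p = 7.6e-06).

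Other members of this arm rose as well. Zmat3, an RNA-binding zinc finger protein, had 10.37, 10.38 and 10.27 with nutlin-3a, against 7.79, 7.92 and 7.70 in M2 cells (2.54, SE 0.08, adjusted p = 4.3e-10). Trp53inp1, a p53-induced nuclear protein, had 12.11, 11.83 and 11.99 with nutlin-3a, against 9.89, 9.70 and 9.74 in M2 cells (2.20, SE 0.11, adjusted p = 2.5e-08). In both genes every nutlin-3a array lay at least 2 log2 units above the mean of the M2 arrays. The cyclin-like Ccng1 rose by 1.60 (SE 0.06, adjusted p = 1.4e-09). Pvt1, the long noncoding RNA gene beside Myc, rose by 2.10 (SE 0.13, adjusted p = 1.5e-07), and 4 of its 5 probe sets were called higher, with a mean over its probe sets of 1.18. The ubiquitin ligase Cop1, the p53 relative Trp73 and Zfp385a had differences between -0.07 and 0.05 and were not called.

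The arrest arm had 6 rises among 10 tested members and no fall. Cdkn1a (p21) stood at 12.48, 12.42 and 12.43 with nutlin-3a, against 10.81, 10.67 and 10.76 in M2 cells. The groups did not overlap, and the rise was 1.70 (SE 0.06, adjusted p = 1.1e-09), or 3.25-fold. Psrc1, a spindle-associated protein and p53 target, had 9.70, 9.66 and 9.67 with nutlin-3a, against 6.69, 6.87 and 6.73 in M2 cells (2.91, SE 0.14, adjusted p = 1.1e-08), or 7.53-fold more. With the mean of its probe sets the difference was 1.48 and still called. Gtse1, which is known to restrain p53 in G2 phase, rose by 1.63 (SE 0.17, adjusted p = 3.0e-05), and the stress protein Gadd45a, which binds CDK1, rose by 1.72 (SE 0.15, adjusted p = 5.4e-06). The rises of the antiproliferative gene Btg2 (0.43, adjusted p = 0.0241) and of Sfn, the 14-3-3 sigma protein (0.35, adjusted p = 0.0379), were smaller. Btg2 lost its call without nutlin-3a replicate 1 or 3 or M2 replicate 2 or 3, and Sfn without nutlin-3a replicate 1 or 2 or M2 replicate 1 or 3. Plk2, Plk3, Ptprv and Rprm had differences from -0.06 to 0.12 and were not called.

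Of 12 tested cell death genes 7 rose and none fell. Phlda3, a pleckstrin-homology protein that competes with AKT for membrane lipids, stood at 10.07, 10.13 and 10.13 with nutlin-3a, against 6.88, 6.98 and 7.07 in M2 cells. The difference of 3.13 (SE 0.12, adjusted p = 9.6e-10), or 8.75-fold, was the largest rise among genes other than clone-named ones. The BH3-only proteins Pmaip1 (Noxa) and Bbc3 (Puma), which neutralize BCL2-type survival proteins, rose by unlike amounts. Pmaip1 had 8.43, 8.47 and 8.48 with nutlin-3a, against 6.65, 6.70 and 6.67 in M2 cells (1.79, SE 0.09, adjusted p = 2.3e-08). Bbc3 had 7.74, 7.98 and 7.89 with nutlin-3a, against 6.91, 6.92 and 7.20 in M2 cells (0.86, SE 0.11, adjusted p = 1.1e-04). Neither gene had overlapping groups. The death receptor Fas rose by 1.10 (SE 0.15, adjusted p = 2.5e-04), and the nuclease Aen rose by 1.21 (SE 0.07, adjusted p = 1.5e-07). Ei24, a protein of the endoplasmic reticulum, rose by 0.87 (SE 0.07) and Apaf1, the core of the apoptosome, by 0.64 (SE 0.06). Siva1, a p53 target linked to death receptors and named after its values were seen, had 8.88, 9.03 and 8.84 with nutlin-3a, against 8.31, 8.32 and 8.32 in M2 cells. Its arrays did not overlap, yet the difference missed the threshold (0.60, SE 0.20, adjusted p = 0.0624). Bid, Ikbip, Pidd1 and Triap1 were not called either.

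**Figure D2:**
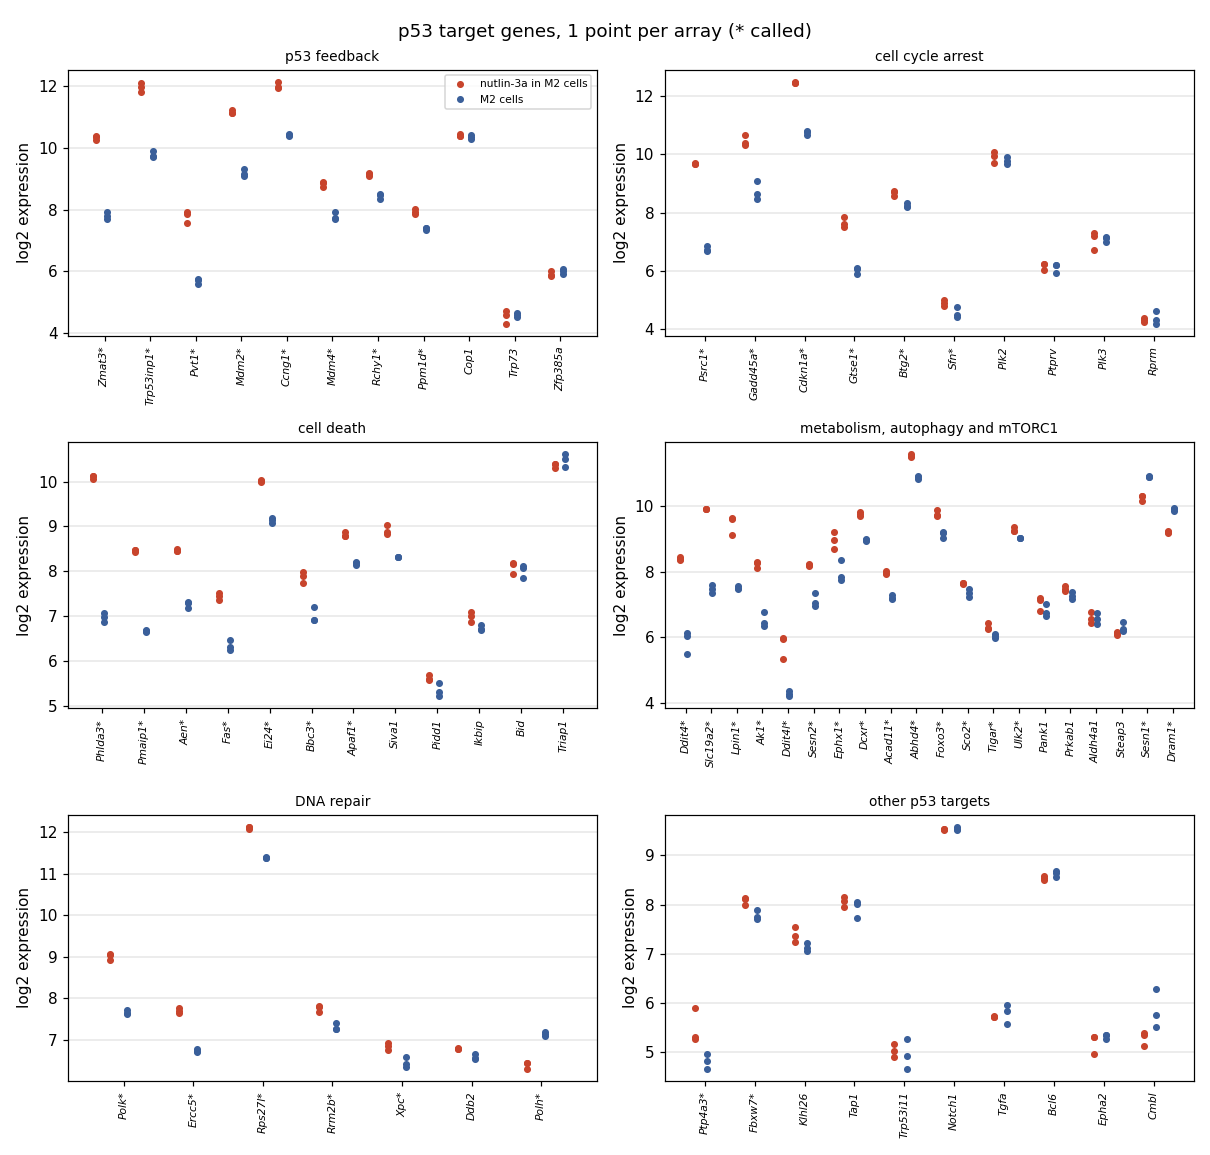
Log2 expression (y axis) of the 70 tested p53 targets (x axis), 1 point per array, with the 3 nutlin-3a arrays in red to the left of the 3 M2 arrays in blue; panels follow the role of the genes and an asterisk marks called genes. The red points of Zmat3, Mdm2, Cdkn1a, Psrc1, Phlda3 and Slc19a2 lie above the blue ones by 1.70 or more on average, while those of Sesn1, Dram1 and Polh lie below.

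The metabolic targets held 14 rises among 20 tested members, and also 2 of the 3 falls. Ddit4 (REDD1) and Sesn2, which restrain the growth kinase mTORC1, rose. Ddit4 had 8.41, 8.45 and 8.37 with nutlin-3a, against 5.49, 6.04 and 6.13 in M2 cells (2.52, SE 0.15, adjusted p = 1.0e-07), and Sesn2 rose by 1.09 (SE 0.09, adjusted p = 3.4e-06). Sesn1, another sestrin and p53 target, moved the other way, with 10.32, 10.33 and 10.18 with nutlin-3a, against 10.89, 10.92 and 10.91 in M2 cells. That fall was -0.63 (SE 0.06, adjusted p = 1.1e-05), and 3 of its 4 probe sets were called lower, with a mean over its probe sets of -0.35. Dram1, a lysosomal protein that promotes autophagy, had 9.25, 9.20 and 9.22 with nutlin-3a, against 9.85, 9.94 and 9.91 in M2 cells (-0.68, SE 0.07, adjusted p = 3.0e-05). Sesn1 and Dram1 were also lower with 10058F4 than in the same M2 arrays (-0.74 and -1.04).

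The thiamine transporter Slc19a2 had 9.93, 9.93 and 9.91 with nutlin-3a, against 7.60, 7.49 and 7.36 in M2 cells (2.44, SE 0.08, adjusted p = 4.3e-10), and all 3 of its probe sets were called higher. Lpin1, a phosphatidate phosphatase and co-activator of fatty acid oxidation genes, rose by 1.94 (SE 0.18, adjusted p = 9.8e-06). Ddit4l, a relative of Ddit4, rose by 1.49 (SE 0.16), adenylate kinase Ak1 by 1.70 (SE 0.14) and the epoxide hydrolase Ephx1 by 0.98 (SE 0.18). Smaller rises were those of Dcxr, a sugar reductase, by 0.80 (SE 0.07), the acyl-CoA dehydrogenase Acad11 by 0.75 (SE 0.10), the lipase Abhd4 by 0.65 (SE 0.07) and the transcription factor Foxo3 by 0.64 (SE 0.08). Sco2, needed to assemble cytochrome oxidase, rose by 0.29, Tigar, which lowers glycolytic flux, by 0.27 and the autophagy kinase Ulk2 by 0.26. Among the fits without an array Sco2 kept its call only without M2 replicate 3, Tigar lost it without nutlin-3a replicate 1 or 2 or M2 replicate 2 or 3, and Ulk2 without nutlin-3a replicate 2. With the mean of a gene's probe sets Ak1 was 0.90, Ulk2 0.16, and Tigar 0.13 and not called (adjusted p = 0.148).

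Of 7 DNA repair targets 5 rose and 1 fell. The translesion polymerase Polk had 9.06, 9.07 and 8.93 with nutlin-3a, against 7.72, 7.64 and 7.64 in M2 cells (1.35, SE 0.07, adjusted p = 3.8e-08). Its relative Polh had 6.45, 6.31 and 6.45 with nutlin-3a, against 7.15, 7.09 and 7.20 in M2 cells (-0.75, SE 0.11, adjusted p = 4.7e-04), so these polymerases moved in opposite directions. Only 1 of 4 Polh probe sets was called, and Polh was -0.40 with their mean and not called with probe sets specific by suffix (-0.18). The excision repair nuclease Ercc5 rose by 0.97 (SE 0.07, adjusted p = 8.8e-07), and by 0.46 with the mean of its probe sets. The ribosomal protein paralogue Rps27l rose by 0.72 (SE 0.06, adjusted p = 3.4e-06) and the p53-inducible ribonucleotide reductase subunit Rrm2b rose by 0.45 (SE 0.07, adjusted p = 5.6e-04). The damage sensor Xpc rose by 0.40 (adjusted p = 0.0119), a call lost without nutlin-3a replicate 2 or M2 replicate 1. The remaining 10 tested targets held 2 rises, the phosphatase Ptp4a3 (0.68, adjusted p = 0.0339) and the ubiquitin ligase subunit Fbxw7 (0.29, adjusted p = 0.038). Ptp4a3 lost its call without nutlin-3a replicate 2 or any one M2 replicate, and Fbxw7 without nutlin-3a replicate 2 or 3 or M2 replicate 1 or 3.

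The promoters of the called p53 targets were searched for the p53 consensus, a pair of 10-base half-sites with 0 to 13 bases between them and up to 2 mismatches in all, from 250 bases before to 50 after each gene's start (RefSeq, GRCm38.p6). Of the 42 called targets 35 had such a window and 7 of these (20%) held a match, as did 12 of 61 tested targets, called or not (19.7%). Among all genes called higher the share was 99 of 1079 (9.18%), against 1075 of 11008 tested genes (9.77%). The 5 targets with at most 1 mismatch are printed because they set a measured rise beside a readable site, each on the gene's own strand with both half-sites in capitals. Only 1 pair, that with the fewest mismatches, is marked in each window, and other pairs within the limit are left in lower case.
Cdkn1a: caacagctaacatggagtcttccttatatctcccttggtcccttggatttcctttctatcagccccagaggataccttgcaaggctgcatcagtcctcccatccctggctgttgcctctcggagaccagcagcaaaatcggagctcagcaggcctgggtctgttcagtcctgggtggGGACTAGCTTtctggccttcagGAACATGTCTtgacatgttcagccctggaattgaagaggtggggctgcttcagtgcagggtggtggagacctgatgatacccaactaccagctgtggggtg
Gtse1: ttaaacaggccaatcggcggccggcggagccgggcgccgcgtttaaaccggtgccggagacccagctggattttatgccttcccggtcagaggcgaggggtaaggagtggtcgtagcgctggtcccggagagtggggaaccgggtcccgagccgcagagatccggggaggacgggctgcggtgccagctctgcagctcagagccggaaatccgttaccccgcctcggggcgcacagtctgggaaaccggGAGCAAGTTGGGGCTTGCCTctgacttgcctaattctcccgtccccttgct
Ccng1: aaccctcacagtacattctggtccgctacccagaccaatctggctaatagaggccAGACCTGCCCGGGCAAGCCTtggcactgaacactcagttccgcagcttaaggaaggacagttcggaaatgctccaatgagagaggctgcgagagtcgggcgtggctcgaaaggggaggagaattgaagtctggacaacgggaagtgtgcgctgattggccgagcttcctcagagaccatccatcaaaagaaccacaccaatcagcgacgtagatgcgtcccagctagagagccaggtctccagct
Polk: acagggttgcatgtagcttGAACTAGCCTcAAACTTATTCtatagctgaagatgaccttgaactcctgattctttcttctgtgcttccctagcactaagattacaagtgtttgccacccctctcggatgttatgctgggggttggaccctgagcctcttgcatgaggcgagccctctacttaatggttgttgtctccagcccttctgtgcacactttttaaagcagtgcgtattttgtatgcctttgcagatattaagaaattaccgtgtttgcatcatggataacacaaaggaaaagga
Rps27l: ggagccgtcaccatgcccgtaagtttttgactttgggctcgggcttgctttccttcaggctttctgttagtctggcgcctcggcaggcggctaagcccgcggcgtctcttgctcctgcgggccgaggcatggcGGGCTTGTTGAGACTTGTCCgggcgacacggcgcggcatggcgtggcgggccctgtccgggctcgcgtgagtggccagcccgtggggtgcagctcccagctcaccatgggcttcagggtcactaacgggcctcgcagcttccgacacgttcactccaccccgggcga
These windows are chr17:29090729-29091028 on the plus strand for Cdkn1a, chr15:85859696-85859995 on the plus strand for Gtse1, chr11:40755237-40755536 on the minus strand for Ccng1, chr13:96519138-96519437 on the minus strand for Polk and chr9:66946163-66946462 on the plus strand for Rps27l. The marked Cdkn1a match had 0 mismatches and 12 bases between its half-sites, and ran from -73 to -42 relative to the start. The 10 bases right after its second half-site depart from the half-site consensus at their first letter only. With that half-site they form another pair within the limit, which is not marked. The other 4 had 1 mismatch each. Aen and Gadd45a, the other called targets with a match, had 2 mismatches. Known p53 sites outside these windows, such as those in first introns, were not searched, and a match is a description of the letters only. For each gene list 1 motif was searched, so no overlap between motifs arises.

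Genes outside the p53 list also stood among the 15 largest rises. Kank3, an ankyrin-repeat protein, had 7.61, 7.51 and 7.44 with nutlin-3a, against 5.77, 5.45 and 5.58 in M2 cells (1.92, SE 0.13, adjusted p = 2.8e-07). Ddias, an apoptosis suppressor induced by DNA damage, had 7.21, 7.29 and 7.03 with nutlin-3a, against 4.86, 5.39 and 5.06 in M2 cells (2.07, SE 0.23, adjusted p = 3.8e-05). Eps8, an actin regulator, had 7.23, 7.37 and 7.32 with nutlin-3a, against 5.16, 5.41 and 5.38 in M2 cells (1.99, SE 0.22, adjusted p = 4.0e-05). The 15 were drawn from called genes without overlap of the groups, so the separation in these 3 genes was set by that choice. Rgs1, which shortens G-protein signalling by chemoattractant receptors, rose by 2.53 (SE 0.17, adjusted p = 3.8e-07), and the zinc transporter Slc39a12 rose by 1.91 (SE 0.20, adjusted p = 2.5e-05), or by 0.96 with the mean of its probe sets. The largest rise of all belonged to a clone-named transcript, named here after its value was seen. This transcript, 9230114K14Rik, had 8.29, 8.28 and 7.86 with nutlin-3a, against 4.75, 4.76 and 4.41 in M2 cells (3.51, SE 0.14, adjusted p = 1.4e-09).

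Of the 15 largest falls 8 were on the list of mitosis genes and 2 on that of DNA replication genes. Of 41 tested mitosis genes 29 fell, none rose and 22 fell at least 2-fold, with a median difference of -1.04, against 0.01 over all genes. The median level of these genes was 6.03, 6.52 and 6.10 in the nutlin-3a arrays, against 7.07, 7.62 and 7.08 in the M2 arrays. Every nutlin-3a array lay below every M2 array, and in each group replicate 2 was the highest. In bulk samples, fewer dividing cells and less RNA of these genes per cell cannot be told apart. The number called was 14 without M2 replicate 2, 16 without nutlin-3a replicate 1 and 18 without nutlin-3a replicate 3. With probe sets specific by suffix it was 19.

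The falls covered entry into mitosis, the spindle, its checkpoint and cytokinesis. Ccna2 (cyclin A), which drives S phase and G2, had 6.37, 6.75 and 6.21 with nutlin-3a, against 8.31, 8.81 and 8.42 in M2 cells (-2.07, SE 0.31, adjusted p = 4.7e-04), or 4.2-fold less. Anln (anillin), the scaffold of the contractile ring, had 5.16, 5.73 and 5.22 with nutlin-3a, against 7.07, 7.78 and 7.19 in M2 cells (-1.98, SE 0.34, adjusted p = 0.00156). The kinetochore protein Cenpf had 4.26, 4.62 and 4.65 with nutlin-3a, against 6.26, 6.69 and 6.41 in M2 cells (-1.94, SE 0.34, adjusted p = 0.00192). In all 3 genes the highest nutlin-3a array stayed over 1 log2 unit below the lowest M2 array. With the mean of a gene's probe sets the differences were -1.15 for Anln, -1.07 for Cenpf, -0.93 for Nusap1 and -0.97 for Aspm, all still called. The spindle checkpoint kinase Bub1 fell by 1.79 (SE 0.35), the midzone kinesin Kif20a by 1.83 (SE 0.32), the microtubule binder Nusap1 by 1.68 (SE 0.35), survivin (Birc5) by 1.67 (SE 0.34) and the midzone bundler Prc1 by 1.52 (SE 0.35). The other 5 of the 15 largest falls were on neither list. Among these, the spindle organizer Aspm fell by 2.02 (SE 0.33), the mitotic kinase Pbk by 2.07 (SE 0.43), the abscission protein Cep55 by 1.73 (SE 0.29), Shcbp1 by 1.72 (SE 0.31) and the cohesin acetyltransferase Esco2 by 1.56 (SE 0.50). Both group means of Esco2 lay under the filter's level, and it kept its call in 1 of the 6 fits without an array. Mki67, the widely used proliferation marker and named after its values were seen, had 9.37, 9.61 and 9.39 with nutlin-3a, against 9.40, 9.94 and 9.51 in M2 cells. These values overlapped and the gene was not called (-0.16, SE 0.24, adjusted p = 0.721). The 12 mitosis genes not called had differences from -0.86 to -0.15.

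Of 40 tested DNA replication genes 11 fell and none rose, with a median difference of -0.28. Rrm2, the ribonucleotide reductase subunit of dividing cells, had 6.11, 7.02 and 6.31 with nutlin-3a, against 8.14, 8.70 and 8.18 in M2 cells (-1.86, SE 0.40, adjusted p = 0.00656). Uhrf1, which carries DNA methylation through replication, had 3.96, 4.79 and 4.13 with nutlin-3a, against 6.02, 6.51 and 6.21 in M2 cells (-1.95, SE 0.37, adjusted p = 0.00269). Rrm2 thus fell while its p53-inducible counterpart Rrm2b rose. Gins1 of the replicative helicase fell by 0.78 (SE 0.16), thymidine kinase Tk1 by 1.20 (SE 0.35) and the origin licensing factor Cdc6 by 0.99 (SE 0.29). Gins1 was -0.37 and not called (adjusted p = 0.127) with the mean of its probe sets. Tk1 kept its call in 1 of the 6 fits without an array, that without nutlin-3a replicate 2, and Cdc6 in 1, that without nutlin-3a replicate 3. The number of replication genes called was 5 without M2 replicate 2 or 3, 6 without M2 replicate 1 or nutlin-3a replicate 1 or 3, and 21 with the 6 arrays fitted alone. Mcm2 to Mcm7 of the replicative helicase and Pcna, the polymerase clamp, had differences from -0.75 to -0.24 and were not called.

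**Figure D3:**
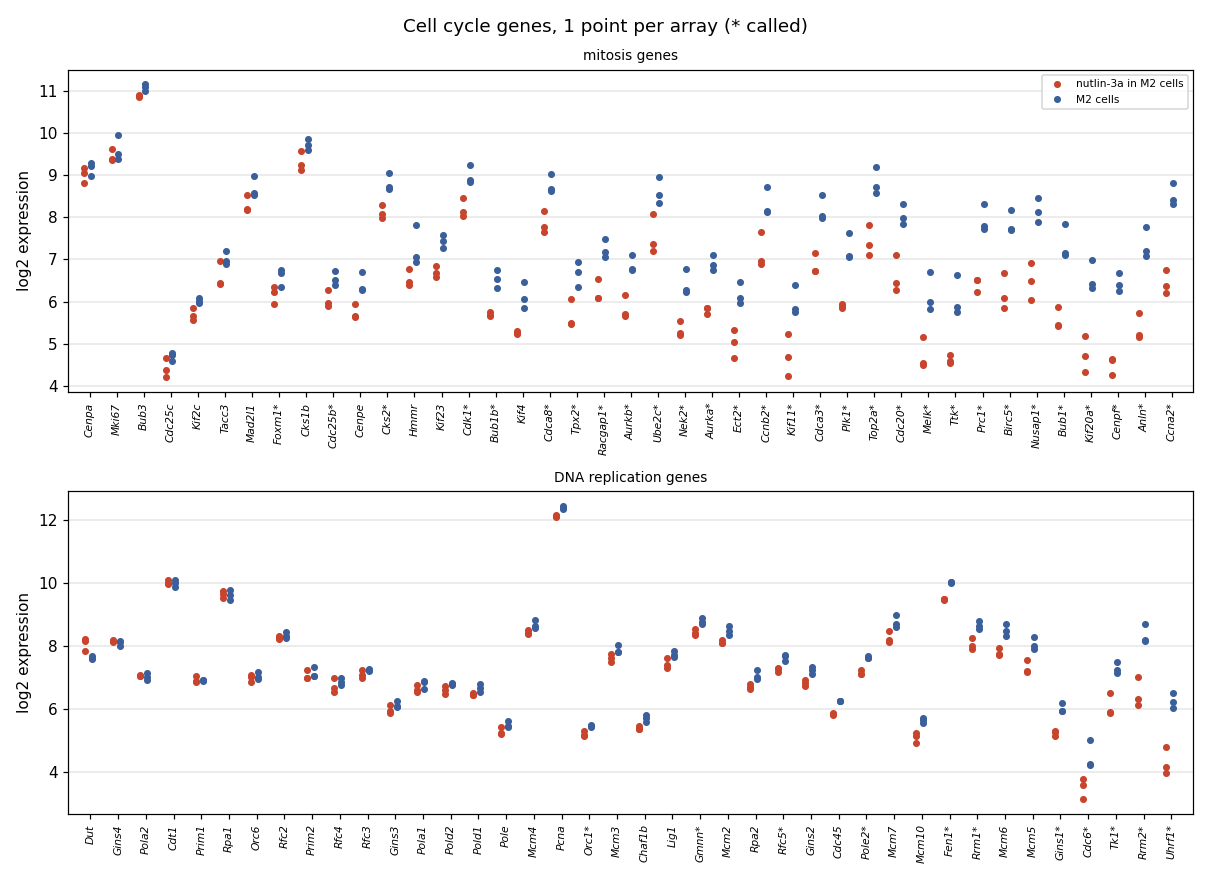
Log2 expression (y axis) of 41 mitosis genes and 40 DNA replication genes, in separate panels, 1 point per array, with the 3 nutlin-3a arrays in red to the left of the 3 M2 arrays in blue; genes are sorted by difference and an asterisk marks called genes. For Ccna2, Anln, Rrm2 and Uhrf1 all red points lie below all blue points.

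Regulators of the cycle moved both ways. Of 17 tested E2F and retinoblastoma family genes 3 rose and 3 fell. Of the pocket proteins, which hold E2F factors in check, Rb1 rose by 0.61 (SE 0.10, adjusted p = 0.00118) and Rbl2 rose by 0.61 (SE 0.06, adjusted p = 1.4e-05), while Rbl1 fell by 0.71 (SE 0.13, adjusted p = 0.00256). With the mean of all probe sets Rb1 was 0.28 and not called (adjusted p = 0.0528), Rbl1 was -0.34, E2f8 was -0.71, and 1 gene of the family was called higher. The repressor E2Fs E2f7 and E2f8 fell by 1.31 (SE 0.40) and by 1.18 (SE 0.27), and E2f7 lost its call in each fit without an array. Cyclin D1 (Ccnd1), which opens G1, had 7.53, 7.98 and 7.69 with nutlin-3a, against 8.89, 9.33 and 8.92 in M2 cells (-1.31, SE 0.31, adjusted p = 0.0116). The CDK4 inhibitor Cdkn2b rose by 0.78 (adjusted p = 0.0411), a call lost in each fit without an array. Myc, the transcription factor of growth and G1 entry, had 6.34, 6.61 and 6.57 with nutlin-3a, against 7.50, 7.31 and 7.61 in M2 cells (-0.96, SE 0.15, adjusted p = 7.9e-04). Its arrays did not overlap. Of 47 tested MYC target and ribosome biogenesis genes 3 rose and 6 fell. Called in either direction were 19.1% of them, near the 15.4% of all genes tested. Those called lower numbered 2 without nutlin-3a replicate 1 or M2 replicate 2, 3 without M2 replicate 1 and 4 in the other fits without an array, and with probe sets specific by suffix none was called higher. Odc1, the first enzyme of polyamine synthesis, rose by 0.44 (SE 0.08), and the nucleolar proteins Dkc1 and Nop58 fell by 0.45 (SE 0.08) and by 0.43 (SE 0.09). The median of that list, -0.03, became 0.01 when arrays were centred on their medians.

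Promoters of mitosis genes are known for the CHR element, through which the DREAM complex acts. The letters TTTGAA were found on either strand in the windows of 17 of 24 called mitosis genes (70.8%), against 1575 of 11008 tested genes (14.3%). Over all tested mitosis genes with a window, called or not, the share was 25 of 35 (71.4%). The windows of the 3 members with the largest falls among those that held it are printed to show where it stands, with each match in capitals.
Anln: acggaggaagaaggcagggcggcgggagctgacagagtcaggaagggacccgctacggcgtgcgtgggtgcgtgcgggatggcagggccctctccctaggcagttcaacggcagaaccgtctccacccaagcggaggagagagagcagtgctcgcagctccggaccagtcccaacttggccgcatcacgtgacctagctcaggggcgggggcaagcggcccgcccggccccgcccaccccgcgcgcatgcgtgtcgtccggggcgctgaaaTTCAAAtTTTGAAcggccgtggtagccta
Cenpf: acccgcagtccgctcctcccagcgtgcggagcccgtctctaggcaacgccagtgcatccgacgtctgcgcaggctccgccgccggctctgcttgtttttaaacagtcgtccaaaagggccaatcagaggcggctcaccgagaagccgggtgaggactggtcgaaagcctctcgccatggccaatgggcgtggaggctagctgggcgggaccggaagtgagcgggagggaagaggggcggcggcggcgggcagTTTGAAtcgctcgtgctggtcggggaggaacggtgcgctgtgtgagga
Prc1: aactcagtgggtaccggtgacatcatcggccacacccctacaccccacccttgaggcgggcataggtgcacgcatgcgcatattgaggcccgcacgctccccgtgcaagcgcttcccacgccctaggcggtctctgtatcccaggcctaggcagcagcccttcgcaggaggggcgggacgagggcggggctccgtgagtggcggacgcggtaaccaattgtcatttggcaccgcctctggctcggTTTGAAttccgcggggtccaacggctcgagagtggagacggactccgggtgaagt
They are chr9:22389157-22389456 on the minus strand for Anln, chr1:189688037-189688336 on the minus strand for Cenpf and chr7:80294201-80294500 on the plus strand for Prc1, in GRCm38.p6. Each match lay between -5 and 33 relative to the start.

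Amino acid response genes rose beside the p53 targets. ATF4 is the transcription factor made when amino acids run short or unfolded protein builds up. Of 28 tested genes of its response 14 rose and 2 fell, with a median difference of 0.29. Against the same M2 arrays, 10058F4 raised 12 of the 28 and lowered 1, with a median difference of 0.30. The share of all genes called with 10058F4 against M2 is not given here. Counts for that agent by list, here and below, are therefore not set against it. The mitochondrial folate enzyme Mthfd2 had 8.38, 8.46 and 8.31 with nutlin-3a, against 7.08, 6.95 and 7.08 in M2 cells (1.34, SE 0.14, adjusted p = 2.1e-05). Asparagine synthetase (Asns) had 7.59, 8.06 and 7.87 with nutlin-3a, against 6.45, 6.66 and 6.56 in M2 cells (1.28, SE 0.21, adjusted p = 1.0e-03). The groups did not overlap in either gene. The transcription factor Atf5 rose by 1.21 (SE 0.12) and the pseudokinase Trib3 by 1.16 (SE 0.16). Ddit4 and Sesn2, described above, belong to this list as well as to the p53 list. The 2 falls were Atf3 and Fgf21, by 0.41 and by 0.36, named as the list's only falls. Without nutlin-3a replicate 1 or 2 or M2 replicate 1 or 3 no member of the list was called lower, and without M2 replicate 2 there was 1. Of 17 tested aminoacyl-tRNA synthetases, which load tRNAs and are ATF4 targets, 9 rose and none fell. With 10058F4 against M2, 4 of them rose and none fell. Their largest rises with nutlin-3a were those of Mars1, by 0.58 (SE 0.09), and Aars, by 0.57 (SE 0.09). Unfolded protein response genes held 5 rises among 20, led by the chaperone Dnajb9 (0.41, SE 0.06, adjusted p = 7.6e-04), and 2 or 3 in each fit without an array. The letters TGATGCA, the core of the element that ATF4 binds, were found on either strand in the windows of 2 of 14 called ATF4 genes (14.3%) and of 8 of 27 tested ones (29.6%), against 284 of 11008 tested genes (2.58%).

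**Figure D4:**
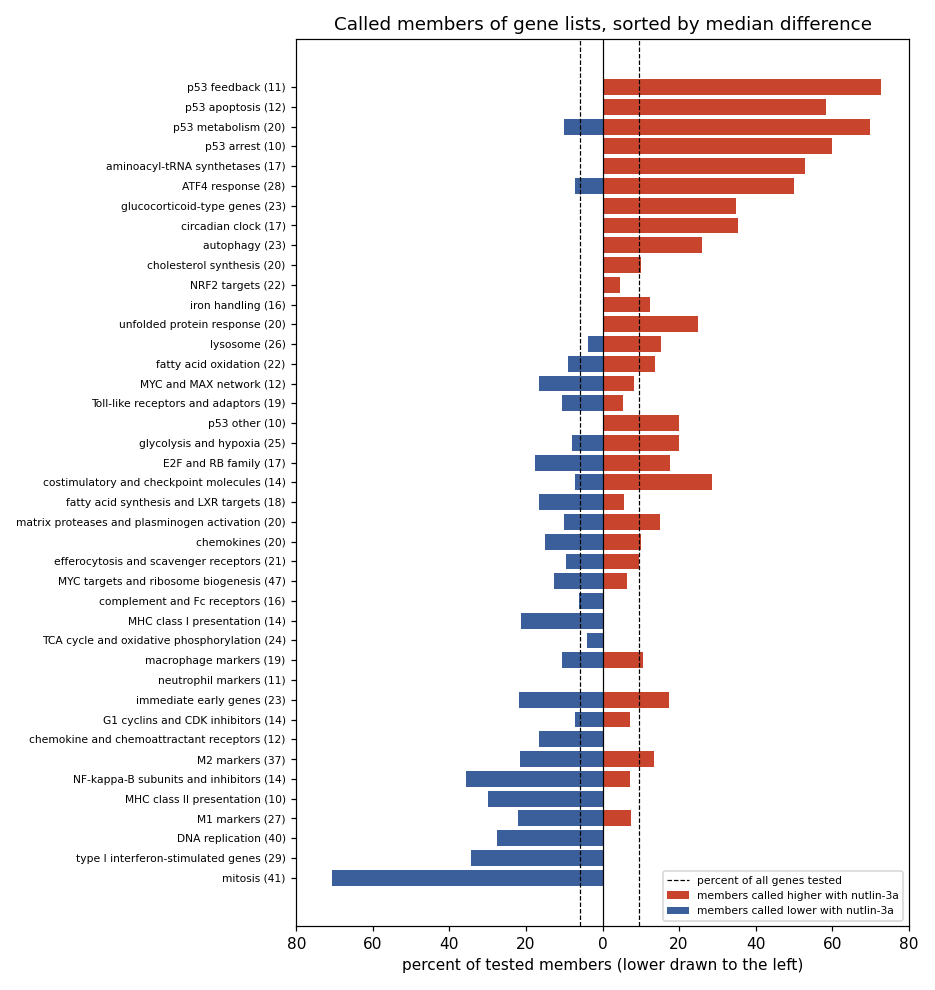
Percent of tested members called higher (red) and called lower (blue) with nutlin-3a against M2 for the gene lists, with the number tested in parentheses; dashed lines mark the 9.56% and 5.85% of all genes tested that were called. The p53 lists, the ATF4 response and the aminoacyl-tRNA synthetases extend to the side of the rises, and mitosis, the interferon-stimulated genes and DNA replication to the side of the falls.

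The M2 programme shifted in part. Of 37 tested M2 markers 5 rose and 8 fell, with a median difference of -0.15. Retnla (FIZZ1), a secreted protein of IL-4-treated macrophages, had 8.24, 8.35 and 7.92 with nutlin-3a, against 9.87, 9.67 and 9.44 in M2 cells (-1.49, SE 0.18, adjusted p = 8.2e-05), or 2.82-fold less. Irf4, a transcription factor of IL-4-polarized macrophages, had 5.77, 5.85 and 5.94 with nutlin-3a, against 7.44, 7.18 and 7.37 in M2 cells (-1.48, SE 0.09, adjusted p = 1.5e-07). Both stayed above M0 cells, Retnla by 3.71 and Irf4 by 1.90. The lectin Mgl2 fell by 1.33 (SE 0.20, adjusted p = 4.8e-04). The VEGF receptor Flt1 fell by 1.25 (SE 0.13, adjusted p = 2.2e-05), with all 4 probe sets called lower, and Batf3, a transcription factor also known from dendritic cells, fell by 1.01 (SE 0.11, adjusted p = 3.5e-05). The other falls, named to complete the count, were Cdh1 by 0.80, the kinase Matk by 0.76 and Egr2 by 0.44.

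The M2 markers that rose included Rnase2a, an eosinophil-type ribonuclease, with 7.99, 8.11 and 7.61 with nutlin-3a, against 6.76, 6.79 and 6.89 in M2 cells (1.09, SE 0.17, adjusted p = 6.2e-04). To complete the count, the lectin Chil3 (YM1) rose by 0.95 (SE 0.19, adjusted p = 0.00357), the cytokine signalling inhibitor Socs2 rose by 0.80 and the IL-4 receptor chain Il4ra by 0.53. The chemokine Ccl17 rose by 0.41 (adjusted p = 0.0288), a call lost in each fit without an array. Arg1, the arginase that marks M2 cells and was named after its values were seen, had 10.18, 10.75 and 10.62 with nutlin-3a, against 9.93, 10.66 and 10.53 in M2 cells. The groups overlapped, and the gene was not called (0.15, adjusted p = 0.917). Same-numbered arrays differed by 0.253, 0.0883 and 0.095. The 95% interval was -1.26 to 1.55 over all 15 arrays, among them M1 arrays with an Arg1 SD of 1.98, -1.12 to 1.41 with the replicate block and -0.34 to 0.63 in the 6 arrays alone. Markers of other cell types were also measured. Dendritic cell markers summed to 711 to 848 on the linear scale with nutlin-3a, against 1147 to 1406 in M2 cells. Batf3, counted above as an M2 marker, averaged 8.89 in log2 with nutlin-3a and made up most of that sum. The median difference of the 9 tested was -0.12, and 2 were called lower (Batf3 and Kmo, the second not without nutlin-3a replicate 2). Ccr7, Itgae, Ly75 and Xcr1 lay below the filter's level. B cell markers summed to 584 to 603 with nutlin-3a, against 716 to 796 in M2 cells. Of 6 tested, with a median difference of -0.26, 3 were called lower (Ighm, by 0.82, Cd79b and Pax5). Ms4a1 and Ebf1 lay below that level. Pax5 lost its call in each fit without an array, and Ighm was -0.16 (adjusted p = 0.0503) with the mean of its probe sets and -0.05 (adjusted p = 0.829) with probe sets specific by suffix. Their part in the results was not tested.

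**Figure D5:**
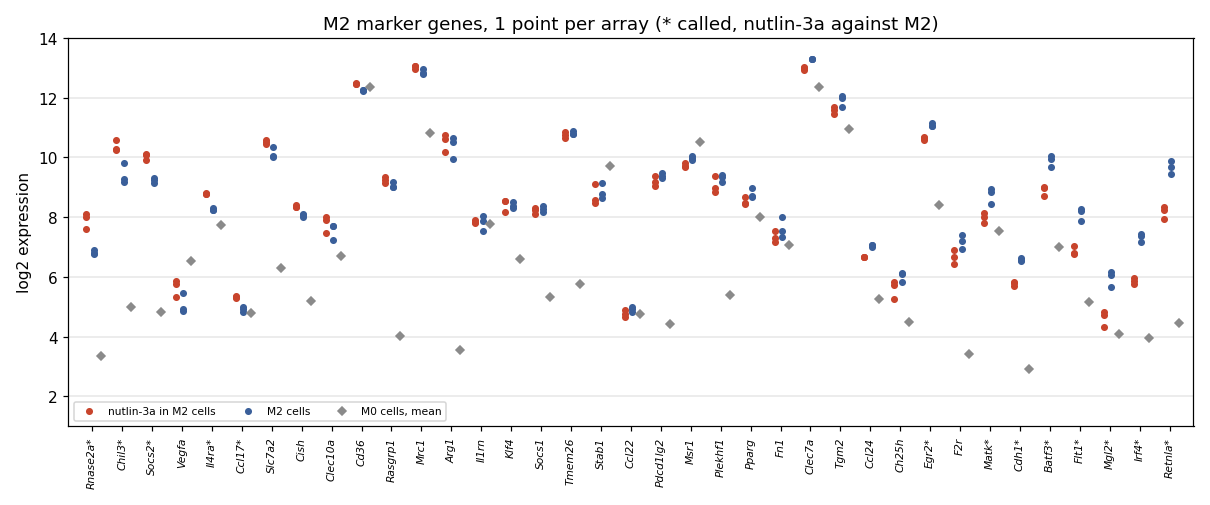
Log2 expression (y axis) of the 37 tested M2 markers, sorted by difference, with the 3 nutlin-3a arrays in red, the 3 M2 arrays in blue and the mean of the 3 M0 arrays as a grey diamond; an asterisk marks genes called between nutlin-3a and M2. All red points of Retnla, Irf4, Mgl2 and Flt1 lie below the blue ones, and those of Arg1 overlap them.

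Interferon and inflammatory genes mostly fell where they were called. Of 29 tested type I interferon-stimulated genes 10 fell and none rose, with a median difference of -0.33. The chemokine Cxcl10 had 4.88, 4.55 and 4.45 with nutlin-3a, against 5.77, 5.88 and 6.54 in M2 cells (-1.44, SE 0.21, adjusted p = 5.0e-04). The antiviral genes Ifit1, Rsad2, Ifit2 and Ifit3 fell by 1.32 (SE 0.18), by 1.08 (SE 0.20), by 1.08 (SE 0.21) and by 0.99 (SE 0.20). None of these 5 genes had overlapping groups. Of 27 M1 markers 6 fell and 2 rose. Toll-like receptors Tlr2 and Tlr1, which sense bacterial lipoproteins together, fell by 0.84 (SE 0.09) and by 0.90 (SE 0.08), the transcription factor Irf5 by 0.74 (SE 0.07) and the costimulatory receptor Cd40 by 0.71 (SE 0.08). Irf5 was -0.44 with the mean of its probe sets. Cd80, a ligand of CD28, moved the other way, with 6.23, 6.43 and 6.50 with nutlin-3a, against 4.86, 5.19 and 4.86 in M2 cells (1.42, SE 0.12, adjusted p = 3.9e-06), and 0.93 with probe sets specific by suffix. The M1 markers called higher numbered 1 without nutlin-3a replicate 2 or 3 or M2 replicate 1 or 3. Genes of both lists also fell with the other agent, counted by list and not member by member. Against the same M2 arrays, 10058F4 lowered 9 of the 29 interferon-stimulated genes, with a median difference of -0.29, and 12 of the 27 M1 markers. It raised none of either list. In the direct contrast of the agents, 9 of the 27 M1 markers were higher with nutlin-3a and none lower, with a median difference of 0.31. Of the 29 interferon-stimulated genes 2 were higher there and 2 lower.

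Of 14 NF-kappa-B genes 5 fell, led by the inhibitor Nfkbie by 0.76 (SE 0.11) and the coactivator Bcl3 by 0.52 (SE 0.09), and Ikbkg, a subunit of the activating kinase, rose by 0.44 (SE 0.12). Ikbkg kept its call in 1 of the 6 fits without an array, that without M2 replicate 3. Without nutlin-3a replicate 1 or 2 or M2 replicate 3, 3 genes of that list were called lower, and with probe sets specific by suffix 2. In antigen presentation no gene rose. Ciita, the master regulator of class II genes, fell by 0.88 (SE 0.23), a call lost without nutlin-3a replicate 1 or 2 or M2 replicate 1 or 3. The peptide editor subunit H2-DMa fell by 0.82 (SE 0.13), and the immunoproteasome subunits Psmb8, Psmb9 and Psmb10 fell by 0.43, by 0.40 and by 0.46. Psmb9 lost its call without nutlin-3a replicate 2 or M2 replicate 1 or 3, and Psmb8 with the mean of its probe sets (-0.21, adjusted p = 0.193). Against the same M2 arrays, 10058F4 lowered 9 of the 14 NF-kappa-B genes and raised 2. It lowered 4 of 10 tested class II genes and 4 of 14 class I genes and raised none of these. In the direct contrast of the agents, 7 of the 14 NF-kappa-B genes were higher with nutlin-3a and 2 lower, with a median difference of 0.32.

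Part of a list of glucocorticoid-type genes rose as well. That list was chosen with earlier results of these data known, so its rises lend no independent support. Of 23 tested members 8 rose and none fell, with a median difference of 0.24. The 15 not called had differences from -0.33 to 0.99. Fkbp5, an immunophilin that restrains the glucocorticoid receptor, had 10.18, 10.09 and 10.04 with nutlin-3a, against 7.51, 7.30 and 7.62 in M2 cells (2.63, SE 0.15, adjusted p = 5.4e-08), or 6.18-fold more. Tsc22d3 (GILZ) had 11.42, 11.50 and 11.45 with nutlin-3a, against 9.75, 9.77 and 9.86 in M2 cells (1.66, SE 0.20, adjusted p = 8.2e-05). With the mean of a gene's probe sets the differences were 1.35 for Fkbp5 and 0.99 for Tsc22d3, both still called. The clock gene Per1 rose by 1.24 (SE 0.11), the phosphatase Dusp1 by 1.07 (SE 0.13) and the haemoglobin scavenger receptor Cd163 by 1.09 (SE 0.16). Of 17 clock genes 6 rose and none fell, among them Cry1, a repressor of the clock, by 1.56 (SE 0.12). Against the same M2 arrays, 10058F4 gave differences of 4.72 for Fkbp5, 2.39 for Tsc22d3, 2.44 for Per1, 2.94 for Dusp1 and 1.48 for Cry1.

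The direct contrast of nutlin-3a with 10058F4 shows where the agents differed, since the M2 arrays cancel in it. There 581 genes were higher with nutlin-3a (4.24% of those tested) and 373 lower (2.72%). Of the 70 tested p53 targets 37 were higher with nutlin-3a and none lower, with a median difference of 0.45, against 0.01 over all genes. Against M2, 10058F4 raised 13 of these targets and lowered 13, with a median difference of 0.02. Psrc1 averaged 9.68 ± 0.02 with nutlin-3a and 6.05 ± 0.24 with 10058F4 (SD, n = 3 each), a difference of 3.63 (SE 0.14, limma adjusted p = 7.7e-10). Zmat3 averaged 10.34 ± 0.06 with nutlin-3a and 7.47 ± 0.12 with 10058F4 (SD, n = 3 each), a difference of 2.87 (SE 0.08, limma adjusted p = 5.8e-11). Phlda3, Cdkn1a, Ak1 and Slc19a2 were higher by 3.22, 2.45, 2.31 and 2.13. Psrc1 was higher by 1.86 and Ak1 by 1.31 with the mean of each gene's probe sets. Among genes outside the p53 list, Kank3 was higher with nutlin-3a by 1.92 and Ddias by 1.89.

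The mitosis genes also separated the agents, 21 of 41 being lower with nutlin-3a than with 10058F4, with a median difference of -1.01. Their median level in the 10058F4 arrays was 7.11, 7.73 and 7.18, above every nutlin-3a array. Among them Anln had a difference of -1.99 (SE 0.34), and -1.23 with the mean of its probe sets. Outside that list, Pbk, Aspm and the replication gene Rrm2 had differences of -2.19, -1.94 and -2.04 (SE 0.43, 0.33 and 0.40), and Aspm -0.85 with the mean of its probe sets. The number of mitosis genes called was 8 without 10058F4 replicate 2 and 10 without nutlin-3a replicate 1 or 3. It was 13 with probe sets specific by suffix and 34 with the 6 arrays fitted alone. Myc was lower with nutlin-3a than with 10058F4 (-0.97, SE 0.15, limma adjusted p = 0.00111).

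Other groups differed the opposite way or could not be separated. None of the glucocorticoid-type genes was higher with nutlin-3a than with 10058F4 and 8 of 23 were lower, Fkbp5 with a difference of -2.09 (SE 0.15, limma adjusted p = 4.9e-07). The immediate early factor Fos and Sla, an adaptor of immune receptors, had differences of -1.94 and -2.19 (SE 0.17 and 0.12). Neither was called between nutlin-3a and M2 (-0.04 and -0.28). The adhesion molecule Icam1 and the urokinase Plau were higher with nutlin-3a than with 10058F4 by 2.16 and 2.71 (SE 0.07 and 0.22). Against M2, Icam1 was not called under any alternative setting (differences of 0.10 to 0.23, limma adjusted p 0.076 to 0.42). Plau rose there by 0.87 to 1.07. Retnla and Irf4, lower than in M2 cells with either agent, were higher with nutlin-3a than with 10058F4 by 0.99 and 1.03 (SE 0.18 and 0.09). For Eps8 the difference was 0.43 (95% interval -0.04 to 0.90), for Lpin1 0.48 (0.09 to 0.87), for Ddit4 -0.23 (-0.55 to 0.09) and for Cry1 0.08 (-0.17 to 0.33). These 4 missed the threshold, which does not show that the agents act alike on them. Of the ATF4 genes 6 of 28 were higher with nutlin-3a and 1 lower. With 1 array left out, 2 to 4 were higher and 0 to 1 lower, the fewest without nutlin-3a replicate 2 or 10058F4 replicate 3.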

How the data were processed

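RNA of 15 macrophage samples, 3 in each of 5 groups, had been hybridised to 1-colour Affymetrix mouse arrays after T7-oligo(dT) cDNA synthesis and biotin labelling, per the labels' protocols. The deposited table holds the authors' log2 expression values after RMA, per the submitters' processing notes, which give no version and no CDF. The log2 scale follows from the values. The 45101 probe sets comprised 64 controls, 34945 naming 1 gene by the platform annotation, 932 naming several and 9160 naming none. Each of 18193 genes took the probe set that was brightest on average over the 15 arrays. The 13703 genes tested lay above the 40th percentile of at least 3 arrays. The fit used R 4.3.3 and limma 3.58.1 (lmFit and eBayes on 5 group means, all 15 arrays, 10 residual degrees of freedom), Benjamini-Hochberg adjustment over all genes tested and a threshold of 0.05. The script was tested on simulated data. The number of arrays limits the precision.

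Same-numbered nutlin-3a and M2 arrays deviated together from their group means (r = 0.365, 0.337 and 0.381 across genes, against -0.27 to -0.07 for other numbers), so the numbers pair the samples as seen in the data. The alternatives were other filters, probe set choices, normalizations, eBayes settings, array weights, the compared groups alone, a replicate block and each array left out. The comparison, the members and the 48 gene lists were chosen with earlier results of these data known. Named genes were Mdm2, Cdkn1a and Myc, the 15 largest non-overlapping rises and falls without clone names, called p53 list members, up to 5 called members of each other list (the 2 with the smallest p where under 2 were called) and the 8 largest differences each way between the agents. Genes named beyond that, among them uncalled list members, were chosen after their values were seen. Figures were drawn with Python 3.11.15 and matplotlib 3.10.9.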

Additional observations from a re-analysis of the deposited data

Results flagged for a closer look

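Probe sets that name no gene or several genes stood outside the comparison by gene. Of 4381 such probe sets tested, 132 were called higher with nutlin-3a and 135 lower, from the same model (limma, Benjamini-Hochberg adjusted p under 0.05). Probe set 1418949_at had 9.92, 10.27 and 10.31 with nutlin-3a, against 6.89, 6.98 and 7.10 in M2 cells. Probe set 1441971_at had 8.80, 9.12 and 8.96 with nutlin-3a, against 6.16, 6.24 and 6.24 in M2 cells. The furthest in the other direction, 1434152_at, had 6.88, 6.72 and 7.22 with nutlin-3a, against 8.65, 8.51 and 9.03 in M2 cells. In none of the 3 did the groups overlap, and no gene is given to them here.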

How the results depend on the processing

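No named gene that was called changed sign under any setting run; Fos, not called against M2, changed sign in 3 of its settings (-0.13 to 0.03). For nutlin-3a against M2, the named genes kept their direction and their side of the threshold in 3008 of 3266 gene and setting combinations, lost the call in 235 and gained one in 20. Array weights gave 2022 genes higher and 1280 lower. With 1 array left out, 756 to 980 genes were called higher, 462 to 579 lower and 14 to 28 mitosis genes lower; the last count was 19 with probe sets specific by suffix. The replicate block gave 1532 higher and 1013 lower, 2086 of the 2112 calls remaining, and added calls for Slc7a11, Postn, Sdhc, Cd3d, Csf3r and Itgax. For nutlin-3a against 10058F4, the fit on the 6 arrays alone gave 875 higher, 608 lower and 34 mitosis genes lower, and array weights gave 1272, 772 and 33. The mean of all probe sets left 45 genes lower by at least 2-fold and suffix-specific probe sets 13 mitosis genes. With 1 array left out, 339 to 464 genes were higher, 213 to 258 lower, 44 to 63 lower by at least 2-fold and 8 to 18 mitosis genes lower. The block gave 742 and 490 there. The causes were not tested. Of the 802 genes called lower, 43 had a nutlin-3a mean under the filter's level of 4.39, where falls are bounded by background.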

Other observations

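Surface and lipid genes of macrophages changed in both directions. Of 14 tested costimulatory and checkpoint molecules 4 rose and 1 fell, 35.7% called in either direction, against 15.4% of all genes tested. Nearer to that share were efferocytosis and scavenger receptors (19.0% of 21), fatty acid synthesis and LXR targets (22.2% of 18) and fatty acid oxidation (22.7% of 22). Havcr2 (TIM-3), a checkpoint receptor, had 8.48, 8.82 and 8.70 with nutlin-3a, against 7.01, 7.53 and 7.32 in M2 cells (1.38, SE 0.19, adjusted p = 3.1e-04). Cd274 (PD-L1) rose by 0.35 (SE 0.07). Mertk, the receptor tyrosine kinase for uptake of apoptotic cells, had 10.10, 10.12 and 10.01 with nutlin-3a, against 8.86, 8.71 and 8.78 in M2 cells (1.29, SE 0.09, adjusted p = 7.6e-07), while the scavenger receptor Olr1 fell by 1.02 (SE 0.23, adjusted p = 0.00949). The lipid exporters Abca1 and Abcg1, targets of the nuclear receptor LXR, fell by 1.12 (SE 0.16) and by 0.49 (SE 0.11), and lipoprotein lipase (Lpl) fell by 0.49 (SE 0.08). Among fatty acid oxidation genes, the fatty acid binding protein Fabp4 rose by 1.14 (SE 0.19), or by 0.63 with probe sets specific by suffix, and the coactivator Ppargc1b fell by 1.00 (SE 0.09). The lists of matrix proteases (25% of 20 called) and of glycolysis (28% of 25 called) held rises and falls as well. Urokinase (Plau) rose by 0.95 (SE 0.22), and the bifunctional glycolytic regulator Pfkfb4 fell by 0.70 (SE 0.07).

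Other groups held small changes. Called in either direction were 26.1% of the autophagy list and 39.1% of the immediate early list, against 15.4% of all genes tested. Of 23 autophagy genes 6 rose and none fell, led by Uvrag (0.62, SE 0.08, adjusted p = 1.3e-04). Of 23 immediate early genes 4 rose and 5 fell, or 3 without nutlin-3a replicate 1 or M2 replicate 1 or 3; the phosphatase Dusp6 rose by 0.98 (SE 0.18) and the transcription factor Klf2 fell by 1.02 (SE 0.14). The lipid receptor S1pr1, which guides cells out of tissue, fell by 1.00 (SE 0.18). Of 22 NRF2 targets glutathione reductase (Gsr) was the one called (2 of the list were called without nutlin-3a replicate 1 or 2), with 8.71, 8.64 and 8.58 with nutlin-3a, against 7.72, 7.88 and 7.82 in M2 cells (0.84, SE 0.07, adjusted p = 2.1e-06). Oxidative phosphorylation, complement, cholesterol synthesis and iron handling held 0 to 2 calls in each direction. Of 19 tested macrophage markers 2 rose and 2 fell, 21.1% called in either direction, against 15.4% of all genes tested. The lineage factor Spi1 (PU.1) fell by 0.40 (SE 0.07). The lists of T and NK cell, neutrophil, stromal, and erythroid and megakaryocyte markers, with 32 members tested, held no call by limma; 5 of these members had an unadjusted p under 0.05, and 3 were called with the replicate block.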
